A study of Mus musculus with 6 samples.

Results

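The cytosolic ribosomal protein genes encode the proteins of the ribosomes that translate nuclear messenger RNA. They were taken as every row of the count table whose symbol is Rpl or Rps followed by a number, with at most the letter a, l or x behind it, or is Rplp0, Rplp1, Rplp2 or Rpsa. That gave 83 of 45777 rows, 51 of the large subunit and 32 of the small subunit, on 19 chromosomes. Rows with a pseudogene symbol (-ps) were left out. The NCBI gene table calls 2 of the members kept by the symbol rule pseudogenes, Rpl6l and Rps4l. The symbol pattern also misses some true ribosomal protein genes, among them Rps3a1 and Rpl22l1, which are described apart.

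RNA was sequenced from the anterior cingulate cortex, a midline region of the frontal cortex, of mice of the inbred strain BALB/c. The stress group (smSDS in the labels) was 3 libraries from mice put through 5 days of social defeat, in which a larger or more aggressive mouse attacks the test mouse, and the non-stress group was 3 libraries from unstressed mice. Totals were 41623899, 43450933 and 44882821 counts in stress replicates 1, 2 and 3, and 43104218, 47212982 and 41976809 in non-stress replicates 1, 2 and 3. The labels name no other allele or agent and do not say whether each library is a separate animal, so the p-values speak only of the spread among these 6 libraries, part or all of which may be technical.

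A ribosome joins a small subunit, which reads the messenger RNA, to a large subunit, which forms the peptide bonds. Each ribosomal protein is needed in about equal number, and the genes are transcribed at high level in nearly every cell. In mammals their messenger RNAs begin with a C and a run of pyrimidines, the terminal oligopyrimidine (TOP) tract, through which the kinase mTORC1 and the protein LARP1 adjust their translation. In neurons, ribosomes also work in dendrites and axons, where local translation is part of synaptic change.

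The start-site sequence of 9 members is shown because the TOP tract is a known feature of this family's messenger RNAs. Each window holds 40 bases before and 30 bases from the start annotated by RefSeq on GRCm38.p6, read 5′ to 3′ on the gene's strand. Capitals mark the tract nearest to the start, a tract being a C followed by at least 4 pyrimidines. The window of Rpl37 holds no such tract. In the first 5 the annotated first base is a C followed by at least 4 pyrimidines. The last 4, chosen after their values were seen, are 3 members that DESeq2 called and the small subunit member with the lowest fold change.
Rps15a (chr7:118116118-118116187, minus strand): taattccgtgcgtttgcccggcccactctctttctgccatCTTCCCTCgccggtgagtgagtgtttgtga
Rps27 (chr3:90213619-90213688, minus strand): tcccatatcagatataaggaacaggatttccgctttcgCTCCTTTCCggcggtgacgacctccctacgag
Rplp2 (chr7:141447611-141447680, plus strand): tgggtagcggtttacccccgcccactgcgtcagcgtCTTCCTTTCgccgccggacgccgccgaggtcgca
Rpl35 (chr2:39005102-39005171, minus strand): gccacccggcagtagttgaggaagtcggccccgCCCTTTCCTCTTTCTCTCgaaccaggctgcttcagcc
Rps6 (chr4:86857338-86857407, minus strand): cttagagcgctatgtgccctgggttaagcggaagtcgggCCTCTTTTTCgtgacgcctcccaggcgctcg
Rpl37a (chr1:72711220-72711289, plus strand): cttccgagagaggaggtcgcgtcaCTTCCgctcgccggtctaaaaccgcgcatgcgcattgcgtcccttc
Rpl37 (chr15:5116573-5116642, plus strand): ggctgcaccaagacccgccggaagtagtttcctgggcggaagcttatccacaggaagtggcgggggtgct
Rps25 (chr9:44407674-44407743, plus strand): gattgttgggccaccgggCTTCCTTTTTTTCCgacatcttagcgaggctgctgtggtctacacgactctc
Rps9 (chr7:3704001-3704070, plus strand): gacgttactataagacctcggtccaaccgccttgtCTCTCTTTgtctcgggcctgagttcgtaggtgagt

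RefSeq's promoter table, with 250 bases before and 50 from each annotated start, matched 61 of the 83 members and held 27025 genes in all. A C followed by at least 4 pyrimidines lay exactly at an annotated start in 14 of the 61 members (23.0%), against 3.01% of all genes in the table. Within 10 bases of the start, such a tract began in 39 members (63.9%), against 34.4% of all genes. Tracts were thus more frequent among members by both measures, as counted in this table. The motif CCGGAAG, recognised by ETS transcription factors, stood on either strand in 25 members (41.0%), against 9.93% of all genes. AAGATGGC, a motif of the factor YY1, stood on either strand in 5 members (8.20%), against 3.19% of all genes. A match describes the letters in the window and is not evidence of binding.

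The libraries differed in ways the groups do not describe. On principal component 1 of the log2 CPM (the usual scaling of counts to the library total) of 19227 tested genes, the stress libraries scored 17.9, 20.4 and 14.9. The non-stress libraries scored 11.7, -37.4 and -27.4, so non-stress 2 and 3 stood apart. The labels name no batch. Markers of cortical excitatory neurons such as Slc17a7, in a list of 7, summed to 3444 to 3650 CPM in stress and 3508 to 3792 CPM in non-stress libraries, so defining markers of the labelled tissue were present.

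In these libraries ribosomal protein genes took a slightly larger part of the counts after stress, in both subunits. The groups overlapped in the large subunit, while in the small subunit stress 3 lay just above non-stress 3. Large subunit members made up 0.388%, 0.387% and 0.371% of the counts in stress 1, 2 and 3, against 0.350%, 0.343% and 0.375% in non-stress 1, 2 and 3. Small subunit members made up 0.212%, 0.215% and 0.2074% in the stress libraries, against 0.204%, 0.190% and 0.2070% in the non-stress libraries. In both subunits stress 1 and 2 were the highest and non-stress 1 and 2 the lowest, while stress 3 and non-stress 3 lay close together between them. The means were 0.382% ± 0.00911 in stress and 0.356% ± 0.0168 in non-stress for the large subunit, and 0.212% ± 0.0040 and 0.200% ± 0.00881 for the small subunit (SD, n = 3 each). For both subunits together the stress mean was 1.07 times the non-stress mean. In bulk tissue, fewer cells of a type and less RNA per cell cannot be told apart.

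The balance between the subunits differed by less than the SD of the non-stress libraries and by slightly more than that of the stress libraries. Summed large subunit counts were 1.83, 1.80 and 1.79 times the small subunit counts in stress 1, 2 and 3, and 1.72, 1.80 and 1.81 times in non-stress 1, 2 and 3. The means were 1.80 ± 0.0210 in stress and 1.78 ± 0.0511 in non-stress (SD, n = 3 each), and the lowest value was that of non-stress 1. Without non-stress 1 the difference was -0.0041, against 0.0253 with it.

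**Figure D1:**
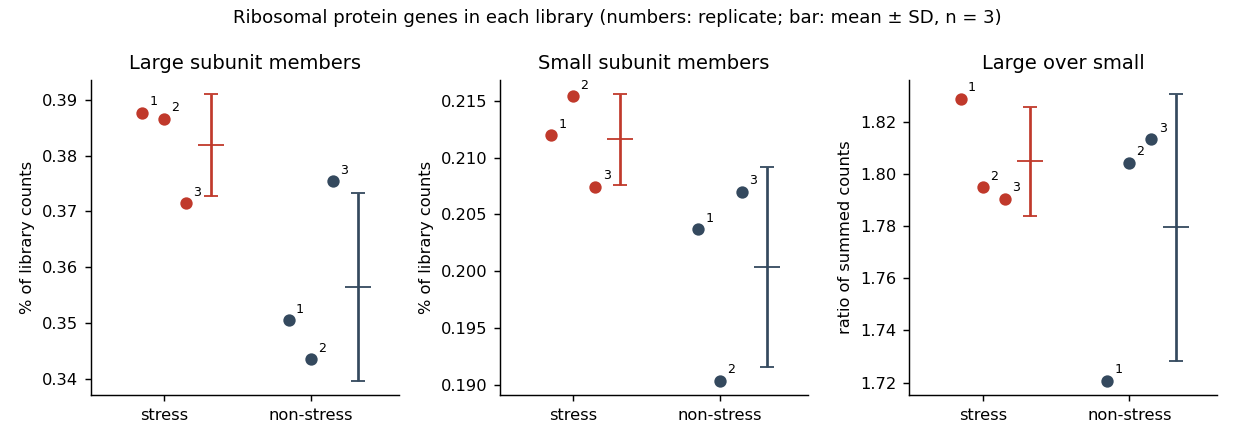
Each point is a library, numbered by replicate, with stress left of non-stress; the left and middle panels give the percent of library counts in large and small subunit members, the right panel the ratio of their summed counts, bars are the mean ± SD, and the vertical axes do not start at 0. In both subunits stress 1 and 2 lie highest, non-stress 1 and 2 lowest, and stress 3 and non-stress 3 lie close together, while the ratios of the groups overlap.

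Of the 83 members, 81 had enough counts to be tested, 49 of the large and 32 of the small subunit. At a Benjamini-Hochberg adjusted p under 0.05, edgeR's quasi-likelihood test over all 19227 genes passed 0 members, and 0.0052% of all genes. The smallest adjusted p among members was 0.344. With DESeq2, which called 0.281% of all genes higher and 0.322% lower, 3 members were higher in stress: Rpl37a (adjusted p = 0.0177), Rpl37 (adjusted p = 0.0437) and Rps25 (adjusted p = 0.0445). limma-voom called 0 members, and 0.0104% of all genes higher.

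What the members shared was a small difference of the same sign. The fitted log2 fold change, stress over non-stress, was above 0 in 78 of the 81, against 49.8% of all tested genes. At an unadjusted p under 0.05, 31 members were higher in stress (15 large, 16 small), against 5.8% of all tested genes, and 1 member, Rps9, was lower, against 6.27%. All 3 stress libraries lay above all 3 non-stress libraries in 24 members (12 of each subunit), against 8.43% of all tested genes. All 3 lay below in 1 member, Rpl3l, against 9.43%. The median log2 fold change was 0.12 for the large and 0.14 for the small subunit, against -0.00053 for all tested genes. Members share libraries and are not replicates, so these counts describe the 6 libraries.

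**Figure D2:**
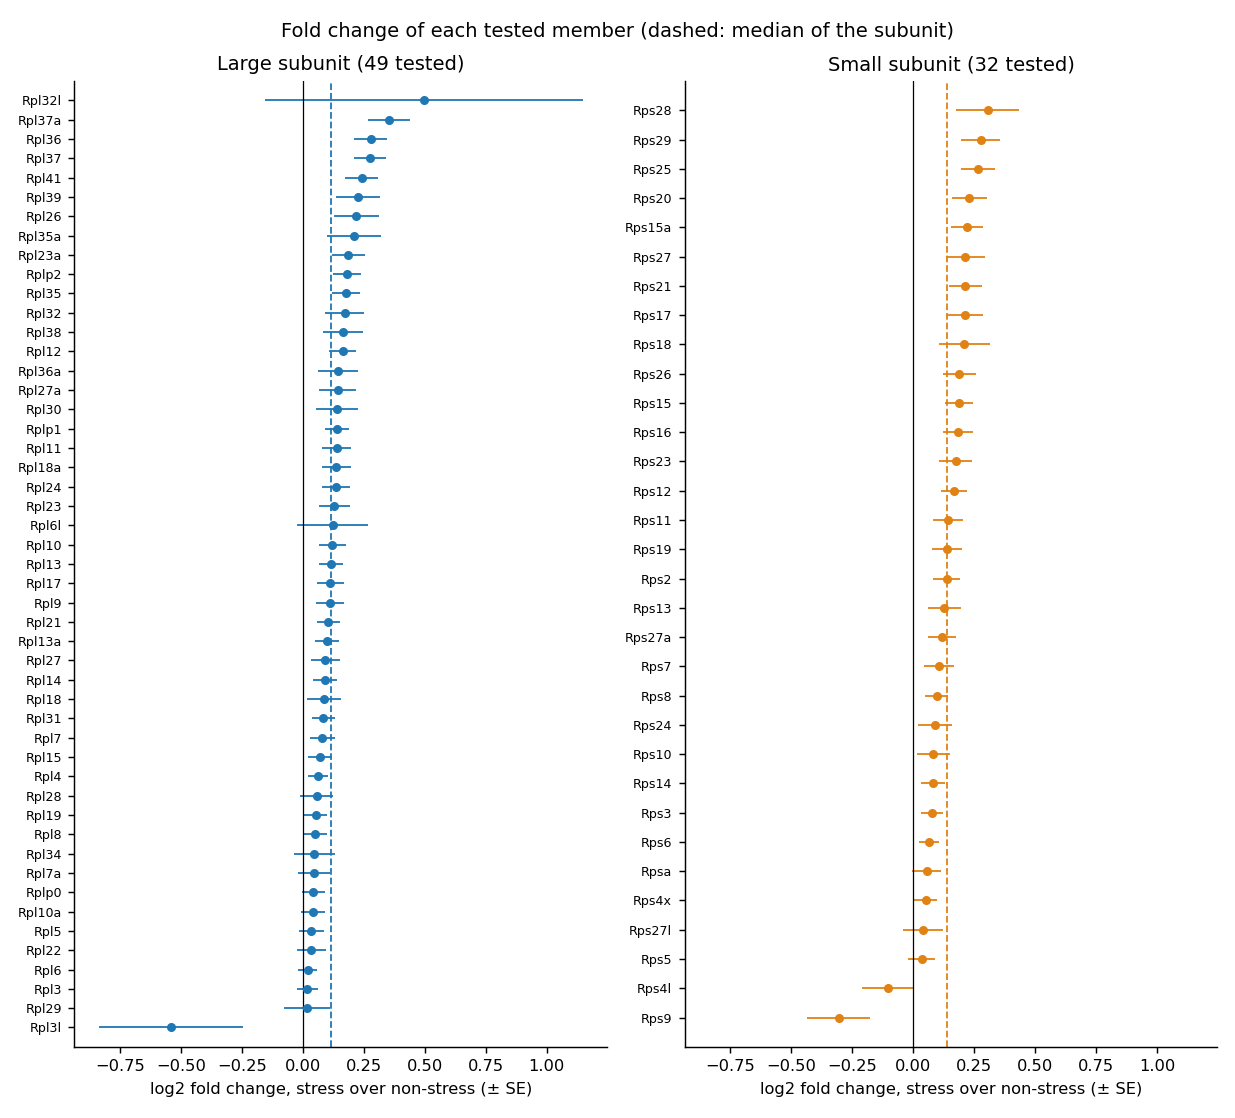
Each point is the log2 fold change of a tested member, stress over non-stress, with bars of ± its standard error, for the large subunit on the left and the small subunit on the right; dashed lines mark the medians of 0.12 and 0.14. All but 3 points lie right of 0, the exceptions being Rpl3l, Rps9 and Rps4l.

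The same libraries carried the difference in most members. Among the 81 tested members, CPM was highest in stress 2 for 39, in stress 1 for 25 and in stress 3 for 5. Of all tested genes, 15.3%, 14.1% and 13.6% were highest in these libraries. CPM was highest in non-stress 1 for 3 members, in non-stress 2 for 1 and in non-stress 3 for 8, against 16.8%, 24.6% and 15.7% of all tested genes. It was lowest in non-stress 2 for 60 members and in non-stress 1 for 14. Over all tested genes, non-stress 2 was the lowest library in 26.6% and non-stress 1 in 15.6%, so the members' count for non-stress 1 was near the share of all genes. Principal component 1 of the 78 members with at least 5 CPM held 78.5% of their variance, with scores of 0.83, 1.03 and 0.18 in stress 1, 2 and 3 and of -0.88, -1.30 and 0.14 in non-stress 1, 2 and 3. The count of members higher at an unadjusted p under 0.05 depended on the library set. It was 16 without stress 1, against 3.16% of all tested genes, 12 without stress 2, against 3.01%, and 32 without stress 3, against 4.31%. It was 20 without non-stress 1, against 9.84% of all tested genes, 20 without non-stress 2, against 4.08%, and 46 without non-stress 3, against 4.69%. The count was lowest without stress 2 and highest without non-stress 3. Without non-stress 2 the medians were 0.087 for the large and 0.10 for the small subunit. In each of these 6 fits edgeR called 0 members at the adjusted threshold. The fit without non-stress 1 called 2.94% of all tested genes higher and 0.913% lower, while the other 5 called at most 2 genes in all.

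Among structural proteins of the large subunit, Rpl37a had the largest difference of those above a few CPM. Rpl37a, a zinc-binding protein of the large subunit (chromosome 1, 72711260 to 72713813, GRCm38), had 59.6, 61.1 and 54.5 CPM in stress 1, 2 and 3, against 44.4, 40.8 and 52.3 CPM in non-stress 1, 2 and 3. All 3 stress libraries lay above all 3 non-stress libraries, with the narrowest gap between stress 3 and non-stress 3. The means were 58.4 ± 3.45 CPM in stress and 45.9 ± 5.86 CPM in non-stress (SD, n = 3 each), a log2 fold change of 0.35 (SE 0.0863, edgeR adjusted p = 0.344).

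Rpl37, another zinc-binding large subunit protein (chromosome 15, 5116613 to 5119140), had 46.4, 50.4 and 45.2 CPM in the stress libraries and 39.9, 36.0 and 41.5 CPM in the non-stress libraries. Its groups did not overlap, and its log2 fold change was 0.27 (SE 0.0663, edgeR adjusted p = 0.344). Rpl36, also a large subunit protein, had 42.4, 44.5 and 39.6 CPM in the stress libraries and 33.8, 32.8 and 37.8 CPM in the non-stress libraries. Its groups were apart too, by a log2 fold change of 0.28 (SE 0.0686, edgeR adjusted p = 0.344).

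Rpl41, the smallest ribosomal protein, with a coding length of 75 bases, had 117, 117 and 110 CPM in the stress libraries and 93.8, 89.8 and 108 CPM in the non-stress libraries. Stress 3 and non-stress 3 lay next to each other, and the log2 fold change was 0.24 (edgeR adjusted p = 0.344). Rpl35, whose tract is shown above, had 58.4, 61.0 and 55.1 CPM in stress and 49.9, 50.3 and 54.3 CPM in non-stress libraries, a log2 fold change of 0.18. Its groups did not overlap, and its edgeR adjusted p was 0.351.

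In the small subunit, Rps25 had the smallest p. Rps25, a protein of the subunit's head that some viral RNAs need for internal initiation (chromosome 9, 44407714 to 44410406), had 81.1, 85.9 and 75.3 CPM in stress 1, 2 and 3, against 67.2, 61.5 and 72.8 CPM in non-stress 1, 2 and 3. The groups were apart, with stress 3 and non-stress 3 again closest. The means were 80.8 ± 5.30 CPM in stress and 67.2 ± 5.65 CPM in non-stress (SD, n = 3 each), a log2 fold change of 0.27 (SE 0.0700, edgeR adjusted p = 0.344).

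Rps29, a short zinc-binding protein, had 45.6, 45.2 and 39.1 CPM in stress and 35.3, 32.9 and 39.0 CPM in non-stress libraries. Stress 3 and non-stress 3 were nearly level, and the log2 fold change was 0.28 (SE 0.0801, edgeR adjusted p = 0.344). Rps15a, whose annotated start lies on the tract shown above, had 30.4, 32.1 and 28.7 CPM in stress and 27.3, 24.9 and 26 CPM in non-stress libraries. Its groups did not overlap, with a log2 fold change of 0.22 (edgeR adjusted p = 0.344). Rps15, Rps20 and Rps12, other proteins of the small subunit, had log2 fold changes of 0.19, 0.23 and 0.17, and in each all stress libraries lay above all non-stress libraries.

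**Figure D3:**
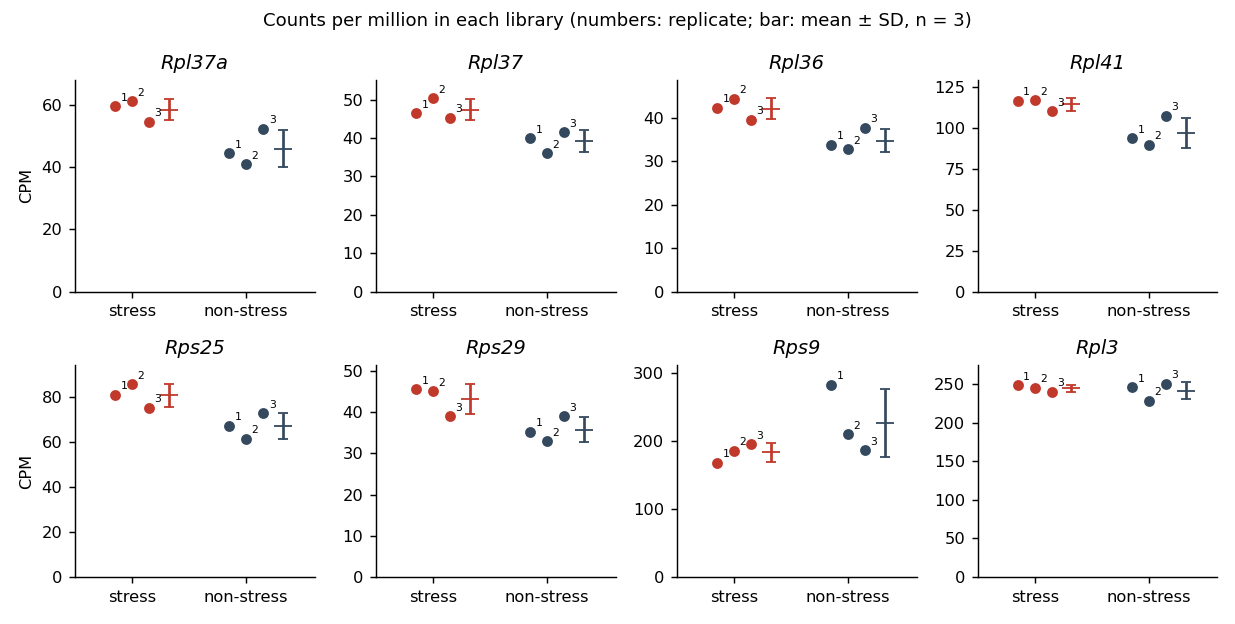
CPM of 8 members in each library, with points numbered by replicate, stress left of non-stress, bars of the mean ± SD (n = 3), and axes starting at 0. Rpl37a, Rpl37, Rpl36, Rpl41, Rps25 and Rps29 are higher in every stress library, Rps9 is highest in non-stress 1, and Rpl3 differs little between the groups.

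Against this common direction stood Rps9, a small subunit protein whose yeast counterpart helps keep decoding accurate (chromosome 7, 3703954 to 3706897). It had 168, 186 and 195 CPM in stress 1, 2 and 3, against 283, 210 and 187 CPM in non-stress 1, 2 and 3. Non-stress 1 was far above the other 5 libraries, and non-stress 3 lay below stress 3. The means were 183 ± 14.1 CPM in stress and 226 ± 50.1 CPM in non-stress (SD, n = 3 each), a log2 fold change of -0.31 (SE 0.129, edgeR adjusted p = 0.401). Without non-stress 1 it was -0.12. Rps6, another abundant small subunit gene, had the other order in the same pair of libraries, with 173 CPM in stress 1 and 159 CPM in non-stress 1.

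The proteins of the stalk, to which elongation factors bind, differed in how far apart the groups lay. Rplp2, an acidic stalk protein, had 71.3, 72.1 and 66.6 CPM in stress and 62.1, 57.8 and 65.6 CPM in non-stress libraries, groups that did not overlap (log2 fold change 0.18, edgeR adjusted p = 0.351). Its partner Rplp1 had 96, 100 and 95 CPM in stress and 85.9, 85.2 and 93.5 CPM in non-stress libraries (log2 fold change 0.14), again without overlap. Rplp0, the stalk's base, had 81.4, 84.7 and 82.9 CPM in stress and 77.4, 81.5 and 83.1 CPM in non-stress libraries. Its groups overlapped, with a log2 fold change of 0.04. Rpsa, a small subunit protein also known as the laminin receptor, averaged 142 ± 6.17 CPM in stress and 137 ± 10.3 CPM in non-stress (SD, n = 3 each), and its groups overlapped.

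Members known for roles in control or outside the ribosome gave small differences. Rps6, the protein that S6 kinase phosphorylates downstream of mTORC1, had 173, 166 and 167 CPM in stress and 159, 159 and 167 CPM in non-stress libraries (log2 fold change 0.06). Rpl5 and Rpl11, which bind MDM2 and so stabilise p53 when ribosome assembly fails, had log2 fold changes of 0.03 and 0.14. Rpl5 overlapped between groups at 106, 98.6 and 98.4 CPM in stress and 101, 94.9 and 101 CPM in non-stress libraries. Rps19, mutated in human Diamond-Blackfan anaemia, averaged 81.9 ± 3.92 CPM in stress and 74.4 ± 5.53 CPM in non-stress (SD, n = 3 each; log2 fold change 0.14). Rpl13a, which in human monocytes is released to silence inflammatory messages, had a log2 fold change of 0.10. The edgeR adjusted p of these 5 genes lay between 0.401 and 0.809.

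Paralogues, the members whose symbol ends in l, had lower levels per kilobase of transcript than their parent genes and did not share one direction. Rpl10l, a testis-expressed copy of Rpl10 on an autosome, had 0 counts in all 6 libraries, which allows up to 0.0635 to 0.0721 CPM at 3 counts a library. Rpl39l, likewise testis-expressed in mice, had 6, 0 and 0 counts in stress and 11, 4 and 5 counts in non-stress libraries, too few to test. Both parents, Rpl10 and Rpl39, were at 81.6 to 97.3 and 12.3 to 16.7 CPM over the 6 libraries, with log2 fold changes of 0.12 and 0.23.

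Rpl3l, the striated muscle form of Rpl3, had 17, 14 and 25 counts in stress and 28, 28 and 27 counts in non-stress libraries. All stress libraries lay below all non-stress libraries, but on few counts (log2 fold change -0.54, SE 0.295, edgeR adjusted p = 0.483). Rpl3, which lines the peptidyl transferase centre, had 248, 245 and 240 CPM in stress and 246, 229 and 250 CPM in non-stress libraries, a log2 fold change of 0.02.

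Rps27l, the p53-inducible copy of Rps27, had 13.8, 15.1 and 14.3 CPM in stress and 14.7, 12.9 and 14.5 CPM in non-stress libraries (log2 fold change 0.04). Rps27 had 32, 29.3 and 27.7 CPM in stress and 24.9, 23.8 and 28.1 CPM in non-stress libraries (log2 fold change 0.21). Both code for proteins of the same length, 252 coding bases, and in both the groups overlapped. Rps4l, annotated as a transcribed pseudogene, had 12.7, 12.7 and 11.2 CPM in stress and 11.6, 14.7 and 13.0 CPM in non-stress libraries (log2 fold change -0.10), and its X-linked parent Rps4x a log2 fold change of 0.05.

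Rpl6l, annotated as a pseudogene, and Rpl6 had log2 fold changes of 0.12 and 0.02. Rpl32l had 11, 13 and 4 counts in stress and 7, 2 and 11 counts in non-stress libraries, with a log2 fold change of 0.50 (SE 0.652, edgeR adjusted p = 0.788) that rests on these few counts, and Rpl32 had 0.17. A paralogue or pseudogene can share reads with its parent, and the sources used here do not say how the authors' counting divided such reads.

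Overlapping genes can share reads too. In NCBI's gene table for GRCm38, 29 members overlap a small nucleolar RNA gene and 23 overlap a gene of another kind. Of the leading members, Rps25 overlaps Ccdc84, with 4088 counts over the 6 libraries, and Rpl35 overlaps Wdr38, with 16. Among other named members, Rpl32l, itself at few counts, overlaps Map7, with 14537 counts. Rps4l overlaps Tmtc1, with 5828, and Rpl5 overlaps Dipk1a, with 9909. The members' counts may include reads of these genes, and the share was not tested.

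Levels differed widely among the members. Per kilobase of transcript, the mean over the 6 libraries was highest for Rpl13 (301 CPM per kb) and Rpl4 (247) in the large subunit and for Rps9 (272) and Rps6 (188) in the small subunit. Rpl13, a large subunit protein, had 254, 239 and 240 CPM in stress and 212, 232 and 233 CPM in non-stress libraries, a log2 fold change of 0.12. Rpl4, a long protein that lines the exit tunnel, had 395, 388 and 381 CPM in stress and 360, 366 and 390 CPM in non-stress libraries, a log2 fold change of 0.06. Apart from Rpl10l, the lowest levels per kilobase of transcript were those of Rpl39l (0.183) in the large subunit and of Rps20 (7.61) and Rps4l (13.4) in the small subunit. The annotated transcript of Rps20 used for this scale is 3706 bases long, and per kilobase of coding sequence its level was 79.0.

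The log2 fold change was larger in members with a shorter coding sequence. Over the 78 tested members with a coding length, the log2 fold change correlated with log2 coding length at r = -0.59 (Spearman's rho = -0.71), and at r = -0.60 over the 76 members of 10 CPM and over. These points share the same 6 libraries, so the correlation is a description. With GC content r was -0.18 (rho = -0.16), and with A content it was 0.11 (rho = 0.058). With mean CPM r was 0.083 but rho was -0.41, so the fold change also went with level by rank. With each library left out in turn r lay between -0.64 and -0.53. It was -0.34 (rho = -0.34) once each library was freed of a trend on transcript length and GC content, and -0.39 (rho = -0.43) with coding length in its place, a choice made after seeing the data.

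The 26 members with a coding length under 400 bases had a median log2 fold change of 0.20, the 30 members from 400 to under 600 bases 0.13, the 18 from 600 to under 900 bases 0.067, and the 4 from 900 to under 1500 bases 0.031. Rpl41, Rps29, Rps28 and Rpl37a belong to the first bin, and Rpl3, Rpl4, Rplp0 and Rpl3l to the last. Other tested genes followed length in the same order with lower values. Their medians were 0.067 for 763 genes under 400 bases, 0.014 for 1129 genes from 400 to under 600 bases, -0.0017 for 2023 genes from 600 to under 900 bases and -0.021 for 4183 genes from 900 to under 1500 bases. In the shortest bin 100% of members and 71.95% of other genes had a log2 fold change above 0.

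Deviations from the mean of the 6 libraries show which libraries carried the relation; they sum to 0 for each member, so both signs must occur. The correlation of a library's deviation from the 6-library mean with log2 coding length, over the members, was -0.43, -0.61 and -0.07 in stress 1, 2 and 3, and 0.34, 0.62 and 0.25 in non-stress 1, 2 and 3. Over 14810 other genes it lay between -0.079 and 0.073. Short members were thus high in stress 1 and 2 and low in non-stress 1 and 2, and long members, apart from Rpl3l, varied little. Small subunit members were a little shorter, with a median coding length of 438 bases against 480 bases in the large subunit.

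**Figure D4:**
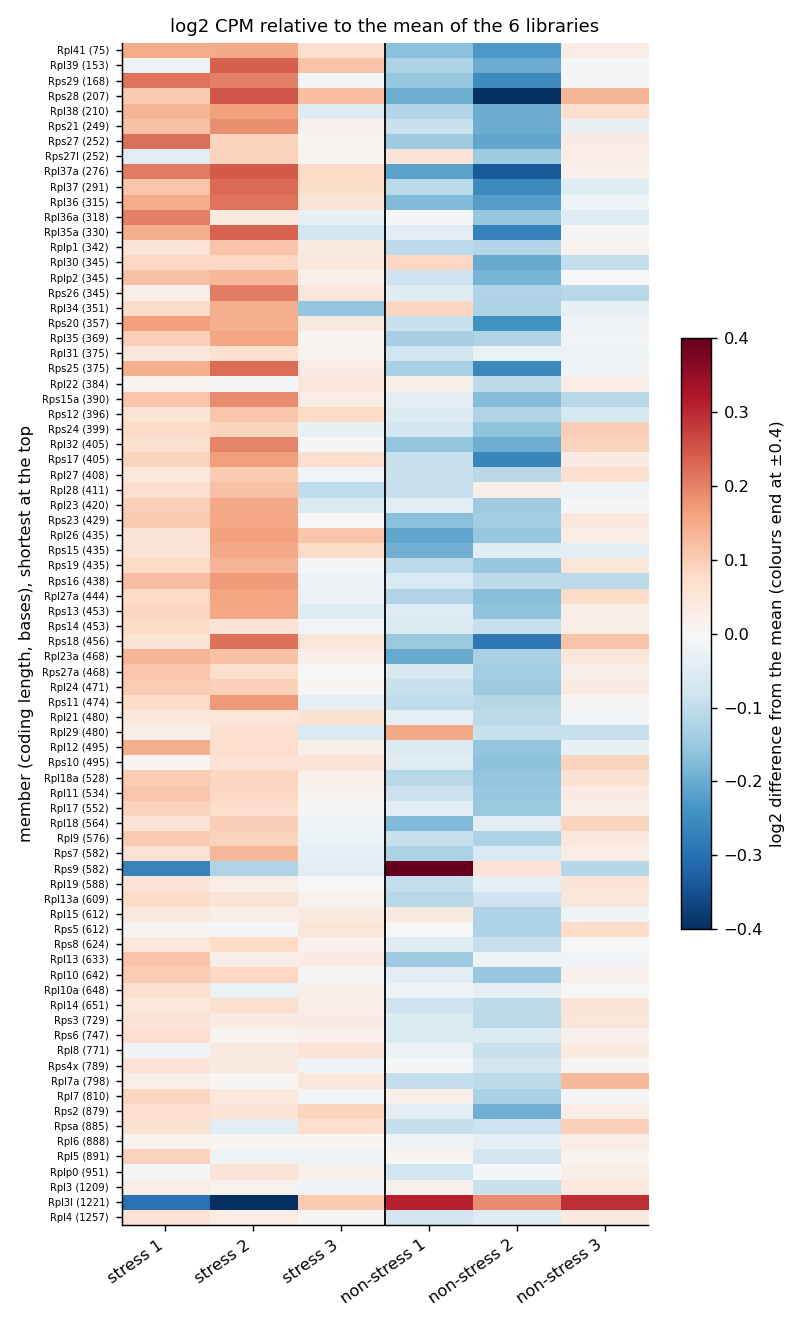
Rows are the tested members with a coding length, from the shortest at the top to the longest, columns are the libraries with stress left of non-stress, and colour is log2 CPM minus the mean of the 6 libraries. Red in stress 1 and 2 and blue in non-stress 1 and 2 is deepest in the upper rows, while stress 3 and non-stress 3 are pale; Rps9 and Rpl3l run the other way.

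**Figure D5:**
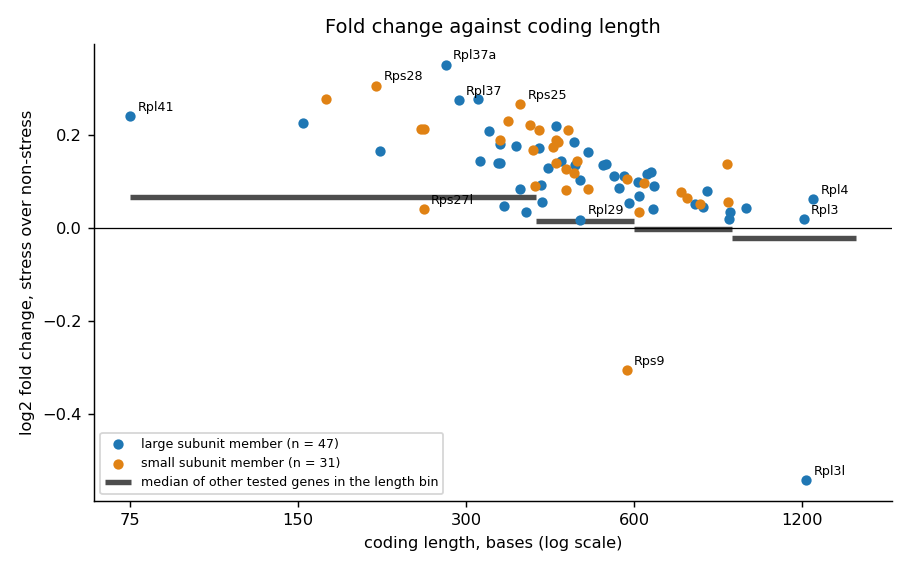
Log2 fold change, stress over non-stress, against coding length on a log axis for 47 large and 31 small subunit members; grey bars are the median of other tested genes in each length bin. Points fall with length, with medians of 0.20 under 400 bases and 0.031 from 900 to under 1500 bases, and most short members lie above the bar of other genes.

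When a smooth trend on GC content and transcript length, fitted over all genes, was taken out of each library, the medians were 0.054 for the large and 0.071 for the small subunit, 14 members were higher at an unadjusted p under 0.05 against 5.78% of all tested genes, and 67 were above 0. With coding length in place of transcript length, a choice made after seeing the data, the medians were 0.12 and 0.13, with 32 members higher, against 6.71% of all tested genes. The 14 tested members with a TOP tract exactly at an annotated start had a median log2 fold change of 0.18. The 45 tested members of the promoter table without one at that exact base had 0.12. This split depends on the annotated base, since a tract began within 10 bases of the start in 39 of the 61 members. The coding lengths of these groups were not compared.

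Ribosomal protein genes outside the symbol pattern gave like values. Of the 8 tested, 0 passed the adjusted threshold and 2 were higher at an unadjusted p under 0.05, against 5.8% of all tested genes. Their median log2 fold change was 0.09. Rps3a1, which encodes a small subunit protein, had 108, 112 and 106 CPM in stress and 102, 92.6 and 103 CPM in non-stress libraries (log2 fold change 0.13). Rpl22l1, the paralogue of Rpl22, had a log2 fold change of 0.21. Rows named as ribosomal protein pseudogenes summed to 535, 532 and 518 CPM in stress and 478, 466 and 511 CPM in non-stress libraries. As in the members, non-stress 2 was the lowest library and stress 1 and 2 were the highest. The groups did not overlap here, as in the small subunit share but unlike the large subunit share. Of 95 tested pseudogene rows 87 were above 0, against 49.8% of all tested genes. At an unadjusted p under 0.05, 5 were higher, a share near the 5.8% of all tested genes. The smallest p were those of Rpl13-ps6 and Rpl13-ps3. How many of the reads of these rows come from the parent genes cannot be told apart here.

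Other genes of protein synthesis, in lists with 0 genes past the adjusted threshold, had medians near that of all genes. For these and the later lists, 5.8% of all tested genes were higher and 6.27% lower at an unadjusted p under 0.05. In a list of 11 genes, the elongation factors with the associated genes Eef1e1, Tpt1 and Pabpc1, 0 were higher and 1 lower at an unadjusted p under 0.05, with a median log2 fold change of 0.02. Eef1a2, the form of elongation factor 1A used by neurons, had 56.7, 60.1 and 56.6 CPM in stress and 63.6, 68.6 and 64.2 CPM in non-stress libraries (log2 fold change -0.18, edgeR adjusted p = 0.344), and Eef2 had -0.09. Of 37 initiation factor genes, 1 was higher and 2 were lower, with a median of 0.0069; Eif5b, which joins the subunits, had 0.24 and Eif4g2 had -0.14.

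Of 52 tested ribosome biogenesis genes, 2 were higher and 1 lower at an unadjusted p under 0.05, with a median of -0.01. Imp3, a part of the small subunit processome, had a log2 fold change of 0.23 and Gnl3, nucleostemin, had -0.14. Of 19 genes of mTORC1 signalling and TOP control, 1 was higher and 2 were lower, with a median of -0.04. Eif4ebp1, the translational repressor that mTORC1 inactivates, had 7.28, 8.63 and 7.44 CPM in stress and 6.12, 4.66 and 5.79 CPM in non-stress libraries. Its groups did not overlap (log2 fold change 0.50, edgeR adjusted p = 0.344), and Deptor, an inhibitor of mTOR, had -0.14.

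The 78 mitochondrial ribosomal protein genes, whose ribosomes translate the mitochondrial genome, had a median log2 fold change of 0.02. Of these 78, 54 were above 0, against 49.8% of all tested genes. At an unadjusted p under 0.05, 3 were higher and 1 was lower. Mrpl53 had a log2 fold change of 0.20 and Mrpl19 of -0.12. Whether these values and those of the cytosolic members differ was not tested.

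Other measures differed between the libraries too. Messenger RNA of mitochondrial origin took 2.67%, 2.53% and 2.51% of the counts in stress 1, 2 and 3, and 2.40%, 1.76% and 2.36% in non-stress 1, 2 and 3, lowest in non-stress 2 as the members were. Pituitary markers, 8 genes, summed to 3.79 to 14 CPM in stress and 1.26 to 3.09 CPM in non-stress libraries, led by growth hormone, Gh, at 8.10, 9.21 and 0.668 CPM in stress libraries and 0.209, 0.127 and 0 CPM in non-stress libraries. Of these 8 genes 2 could be tested, both were higher at an unadjusted p under 0.05, and the defining markers Fshb and Pitx1 were at 0 in all libraries. Erythroid markers, 5 genes with none at 0 in all libraries, summed to 368 to 474 CPM in stress and 360 to 459 CPM in non-stress libraries. Of 8 neuronal markers 3 were lower at an unadjusted p under 0.05, and they summed to 11353 to 11521 CPM in stress and 11542 to 11817 CPM in non-stress libraries. The part of these measures in the members' values was not tested.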

How the data were processed

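The authors deposited whole-number counts per gene, which were used unchanged. Per the submitters' processing notes, Trimmomatic 0.38, HISAT2 and StringTie were used with GRCm38 (mm10). Per the labels' protocols, libraries came from total RNA by a SMARTer low-input kit and TruSeq construction. The sources used here do not state the counting step, annotation, strand or treatment of multi-mapping reads. Counts without molecular identifiers are not independent molecules, so floors (3 counts) cover counting error only.

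edgeR 4.0.16 in R 4.3.3 kept 19227 genes by filterByExpr, scaled them by TMM (factors 0.996 to 1.00) and fitted group as the single term to 6 libraries. The quasi-likelihood test was two-sided, with Benjamini-Hochberg adjustment over all tested genes and a threshold of 0.05. The common dispersion had a square root of 0.0856. CPM scale the counts to the library total and are given with the SD of 3 libraries. Transcript and coding lengths and GC content came from the GENCODE annotation of GRCm38, for 90.2% (transcript length) and 77.4% (coding length) of tested genes. Steps were tested on simulated data.

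The members and lists were chosen with earlier results of these data known. Named were, in each subunit, the 6 members of smallest p, the 2 of lowest fold change and the 2 of highest and of lowest level per transcript length; stalk, control and paralogue genes with their parents; and the 2 smallest p of each of 7 pathway lists. Rps28 and Gh were named after their values were seen.

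Alternatives were other size factors, no or a stricter filter (50 counts in 3 libraries), each library left out, a replicate block, DESeq2 1.42.0, limma-voom (limma 3.58.1), a GC and length trend (mgcv 1.9.3), nuclear totals and other memberships. The trend on coding length was added after seeing the data. The labels state no pairing by replicate number.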

Additional observations from a re-analysis of the deposited data

How the results depend on the processing

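Of the main results recomputed under alternatives, 84 values kept their direction and moved by less than the limit set for them, which for shares and ratios is the spread between libraries. Of the others 6 were weaker, 4 moved further, 1 reversed and 1 was stronger. The 84 include the 47 members with an unadjusted p under 0.05 without non-stress 3, against 32 in the main fit. DESeq2 called 3 members. edgeR called 0 in the main fit and in each alternative, also without non-stress 1, where it called 2.94% of all tested genes higher and 0.913% lower. Members with an unadjusted p under 0.05 numbered 32 in the main fit, against 12.1% of all tested genes. With the GC and transcript length trend taken out they numbered 15: 14 higher, against 5.78% of all tested genes, and 1 lower, against 5.75%. With each library left out they numbered 12 to 47, and the shares of all tested genes that were higher are given above. The medians were 0.054 (large) and 0.071 (small) with that trend out; the cause was not tested. With each library left out they were 0.087 to 0.149 (large) and 0.105 to 0.173 (small), and the differences in share were 0.0190 to 0.0350 and 0.00627 to 0.0146 percentage points. The large to small ratio differed by -0.0041 to 0.0423, negative without non-stress 1.

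The labels state no pairing by replicate number. Between stress and non-stress libraries of the same number, deviations from the group mean were correlated over all tested genes. The values were 0.016, -0.030 and 0.021 for numbers 1, 2 and 3, and only the stress library of number 1 was closest to its own number. Over the members the correlations were 0.035, -0.60 and -0.67. With 3 libraries a group these values cannot settle whether the libraries were paired. With the replicate block, 0 members were called, 25 had an unadjusted p under 0.05 (24 higher, against 5.75% of all tested genes, and 1 lower, against 5.56%), 0.0104% of all tested genes were called higher, and the medians were 0.116 (large) and 0.140 (small). With the block and the GC and transcript length trend out, 0 members were called, against 0.0104% of all tested genes higher and 0.0208% lower. In that fit 13 members had an unadjusted p under 0.05: 12 higher, against 5.83% of all tested genes, and 1 lower, against 5.33%. The medians were then 0.053 (large) and 0.071 (small).

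Among uncalled genes with fold changes near 0, signs turned. With the GC and transcript length trend out the log2 fold changes were -0.028 for Rpl29, -0.024 for Rpl5, -0.13 for Rps27l, -0.0020 for Rpl6 and -0.015 for Rps4x. With the block too they were -0.023, -0.024, -0.13, -0.0019 and -0.015. With the coding length trend out Rpl5 was at -0.017 and Rps27l at -0.061. With each library left out the ranges were -0.0058 to 0.0552 for Rpl5, -0.026 to 0.100 for Rpl29, -0.013 to 0.0746 for Rps27l and -0.014 to 0.0427 for Rpl3. Without a filter, where Rpl39l enters, the correlation with coding length was -0.074 (Spearman's rho -0.65). With 3 libraries a group an exact permutation test of a single value cannot go below p = 0.1. Rpl3l, Rpl32l and Rpl39l rest on under 30 counts a library.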
